A study of Homo sapiens with 12 samples.

Results

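HCT116, a human colon cancer cell line, was treated with 10 uM C646 for 96 h and compared with HCT116 treated with 0.05% DMSO, the solvent, for 96 h. The comparison was made row by row in the deposited gene table of an Illumina HumanHT-12 bead array. A gene row was kept when its signal was above the background limit in at least 1 of the 2 columns, which left 17146 of 34687 rows. Each column was an average of 2 biological replicates, so the values have no replicate error and no test, and every statement below is about size alone. The 96 h cultures were begun at lower density than 12 h cultures of the same series, were passaged before they became confluent and were given fresh medium with drug or solvent every day. The series also holds HCT116 with DMSO, C646 or ICG-001 (10 uM, a compound directed against CBP) at 12 h and 96 h, and the same set in PANC1, a human pancreatic cancer line. Both lines are established cell lines, so each result belongs to 1 line and not to tumors in general.

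C646 is a small-molecule inhibitor of the histone acetyltransferase activity of CBP and its relative p300, encoded by CREBBP and EP300. The 2 proteins put acetyl groups on histones and on transcription factors, and they act as coactivators for many factors, among them β-catenin with TCF proteins and the hypoxia-inducible factors. In colon cells the β-catenin and TCF complex is best known for driving the WNT program of intestinal stem cells.

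The background limit lay at a signal of 143.0 in the DMSO column and 142.6 in the C646 column, and 14684 rows were above it in both. The row nearest inside the limit was DSCR5, with 142 in DMSO and 143 in C646, and the row nearest outside was FCHSD1, with 143 in both columns. Among the 17541 rows under the limit in both columns the log2 ratio had an SD of 0.07. The labelled cell type was checked with 11 markers of colon epithelium, of which 10 were above the limit. KRT19 had a signal of 9243 in DMSO and 12027 in C646, EPCAM had 8096 and 6663, and CDX2 had 354 and 382, while VIL1 was under the limit in both. Of the markers of other cell types, 1 of 9 for fibroblasts, 5 of 10 for leukocytes and 1 of 6 for endothelium were above the limit. CD68, a lysosomal protein that is not confined to macrophages, was the brightest of these at 439 in DMSO and 675 in C646, while PTPRC, CD3E and PECAM1 were under the limit. The other leukocyte rows above the limit, CD14, LYZ, ITGAM and CD79A, passed it narrowly, with no signal over 145.2 in either column. The summed signal of the leukocyte list was 1620 in DMSO and 1887 in C646, which apart from CD68 is mostly background.

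At 96 h, 526 rows differed at least 1.5-fold, which is 3.07% of the rows kept. Of these, 320 rows (1.87%) were higher with C646 and 206 rows (1.2%) were lower. These shares over all rows are to be set beside each list count below, and in a short list 1 row can pass them. At least 2-fold differences were seen for 31 rows upward and 20 rows downward, and 3-fold differences for 7 and 3 rows. Most rows moved little, since 80.6% of all rows differed by less than 1.2-fold and the median log2 ratio was 0.00, with 50.1% of rows above 0. With the rows split by signal into 4 equal parts, 0 of 4287 rows reached 1.5-fold in the dimmest part, against 7.58% in the brightest. The values were not background-subtracted, so ratios of dim rows are compressed and the counts lean to bright genes. For 11 of the 320 higher rows the DMSO signal was at or under the limit, so the ratio is only a lower bound there.

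**Figure D1:**
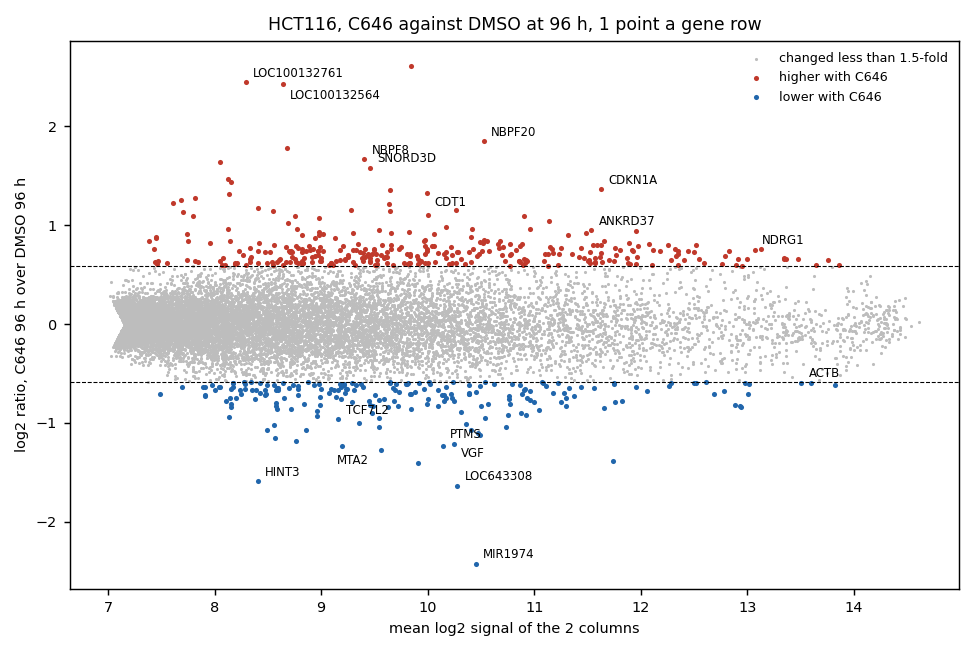
Each point is 1 of the 17146 gene rows in HCT116 at 96 h. The horizontal axis is the mean log2 signal of the C646 and DMSO columns and the vertical axis is the log2 ratio of C646 over DMSO, with dashed lines at 1.5-fold. MIR1974 stands lowest and NBPF20 and CDKN1A among the highest bright rows, and the dim rows at the left stay within the lines.

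Several named genes were higher at both times. CDT1, which licenses DNA replication origins, was 644 in DMSO and 1609 in C646 at 96 h (a log2 ratio of 1.32), and 1225 and 2252 at 12 h. CPA4, a secreted carboxypeptidase, was 226 and 509 at 96 h (2.25-fold) and 210 and 437 at 12 h. MAPK13, a stress-activated kinase of the p38 family, was 417 and 928 at 96 h and 697 and 1120 at 12 h. CTSZ, a lysosomal cathepsin, was 251 and 556 at 96 h and 256 and 473 at 12 h. For CPA4 and CTSZ the 2 DMSO columns lay close together, whereas for CDT1 and MAPK13 the DMSO signal was lower at 96 h than at 12 h, with log2 ratios of -0.93 and -0.74. PLIN5, a coat protein of lipid droplets, was 347 and 732 at 96 h and 439 and 717 at 12 h. Among the NBPF genes, NBPF20 was at 778 in DMSO and 2801 in C646 and NBPF8 at 380 and 1210. NBPF genes are near-identical copies, so which copy was measured is uncertain. Of the 9 NBPF rows above the limit 3 were at least 1.5-fold higher and 3 were below 0, the lowest at a log2 ratio of -0.33, and their median was 0.13. USP49, a deubiquitinating enzyme, was 1424 and 2771 at 96 h, and CCBE1, a secreted factor of lymphatic growth, was 823 and 1627. PLIN5, NBPF20, NBPF8, USP49 and CCBE1 were also at least 1.5-fold higher at both times in PANC1. They belong to a set of rows, described below, for which the source of the signal was not tested.

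Several named genes were lower at both times. MTA2, a subunit of the NuRD remodelling and deacetylase complex, was 1171 in DMSO and 485 in C646 at 96 h, or 41.4% of DMSO, and 1337 and 732 at 12 h. PPP1R10, a nuclear partner of protein phosphatase 1, was 900 and 382 at 96 h and 856 and 398 at 12 h. C14orf4, now IRF2BPL, was 2129 and 979 at 96 h and 1793 and 631 at 12 h. INO80E, a subunit of the INO80 remodeller, was 686 and 360 at 96 h, and NFIX, a nuclear factor I transcription factor, was 974 and 521. In each of these 5 genes both C646 columns lay below both DMSO columns. PTMS, a small acidic nuclear protein related to prothymosin, was 1728 and 737 at 96 h and 1041 and 561 at 12 h. MSN, the moesin that ties actin to the membrane, was 1964 and 937 at 96 h, and SLC4A2, an anion exchanger, was 524 and 249. HYOU1, a chaperone of the endoplasmic reticulum, was 536 and 263.

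Some chromatin genes among the lower rows were picked after their values were seen. MTA1 and GATAD2B, like MTA2 members of NuRD, were at 61.8% and 63.6% of DMSO. No list of NuRD members was counted, so these genes do not stand for the complex. The deacetylases HDAC1 and HDAC2 had log2 ratios of 0.21 and -0.42, both under 1.5-fold. SETD1A, a histone H3 lysine methyltransferase, was at 54.2% and SMARCB1, a SWI/SNF subunit, at 64.1%. HMGA1, an architectural DNA-binding protein, was 2591 in DMSO and 1524 in C646, and H2AFX, the histone variant of DNA-damage signaling, was 527 and 343. The targets themselves did not reach 1.5-fold, with CREBBP at 481 and 473 and EP300 at 183 and 176. EP300 was dim, so its ratio is compressed and does not show that it did not move. On the fixed lists, 0 of 12 histone acetyltransferase rows and 0 of 14 histone deacetylase rows reached 1.5-fold, and their median log2 ratios were -0.01 and -0.02. Since 3.07% of all rows reached 1.5-fold, counts of 0 in lists this short say little. Of 19 bromodomain and acetyl-lysine reader rows, 1 did so, TRIM28, a corepressor of zinc finger proteins, at 1493 and 886.

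**Figure D2:**
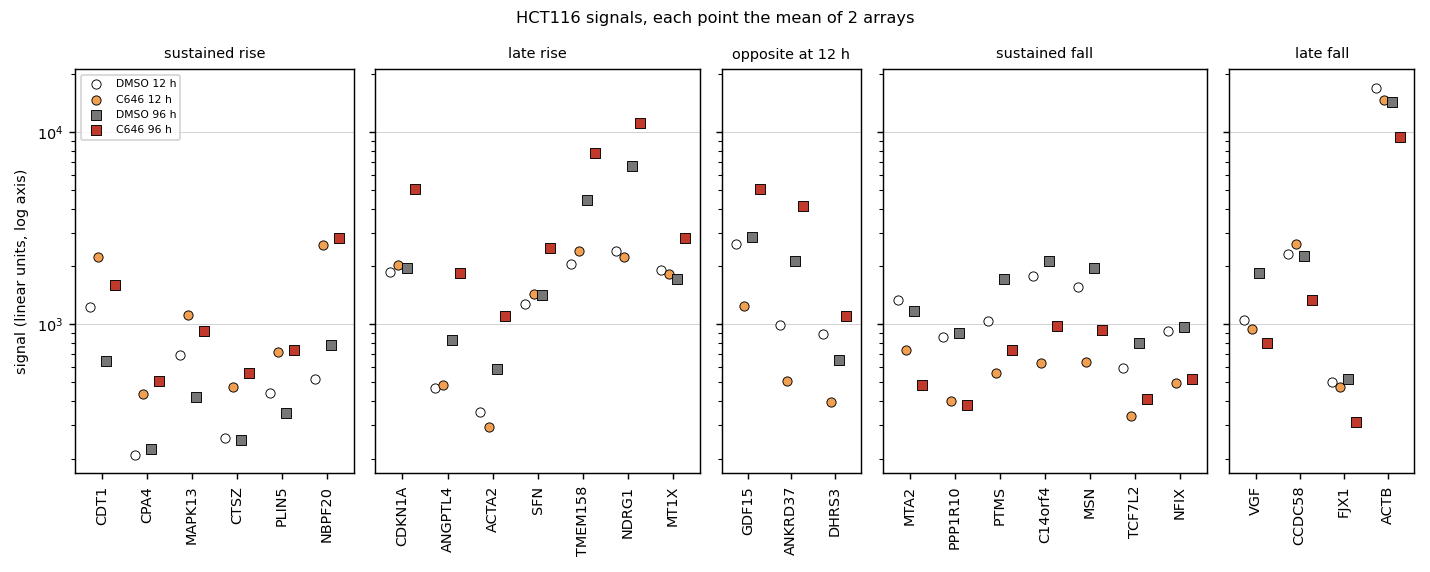
Signals in HCT116 on a log axis for genes higher or lower at both times, genes moved at 96 h alone and genes opposite at 12 h, each point being the mean of 2 arrays. Circles are 12 h and squares 96 h, with DMSO in white and grey and C646 in orange and red. The C646 96 h point of CDKN1A, at 5072, stands alone above the other 3 columns, which lie from 1864 to 2042.

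A second set of genes differed at 96 h but by less than 1.2-fold at 12 h. CDKN1A, the p21 inhibitor of cyclin-dependent kinases, was 1968 in DMSO and 5072 in C646 at 96 h (2.58-fold), against 1864 and 2042 at 12 h. With ICG-001 at 96 h, set against the same DMSO column, CDKN1A was 4269. ANGPTL4, a secreted inhibitor of lipoprotein lipase, was 828 and 1840 at 96 h and 469 and 484 at 12 h. ACTA2, the smooth muscle actin, was 586 and 1110 at 96 h and 351 and 294 at 12 h. In CDKN1A the solvent column stayed level between the times, but in ANGPTL4 and ACTA2 the DMSO signal was itself higher at 96 h than at 12 h, with log2 ratios of 0.82 and 0.74. SFN, the epithelial regulator stratifin, was 1429 and 2500 at 96 h, and TMEM158, a membrane protein induced by RAS signaling, was 4444 and 7754. FAM129A, now NIBAN1, was 187 and 330, and GRIN2C, a glutamate receptor subunit, was 161 and 288. In the other direction VGF, a secretory granule neuropeptide precursor, was 1846 in DMSO and 796 in C646 at 96 h, against 1049 and 946 at 12 h. CCDC58, now MIX23, was 2264 and 1335, and FJX1, related to a planar polarity gene of flies, was 522 and 311. HINT3, which lay between 1.2-fold and 1.5-fold at 12 h and was picked after its values were seen, was 588 and 195 at 96 h, the lowest share of DMSO of any protein-coding row at 33.2%.

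Opposite directions at the 2 times were seen for 3 genes, which were at least 1.5-fold lower at 12 h and at least 1.5-fold higher at 96 h. GDF15, a stress-induced cytokine, was 2607 in DMSO and 1242 in C646 at 12 h, and 2859 and 5065 at 96 h. ANKRD37, a target of the hypoxia-inducible factor, was 996 and 507 at 12 h, and 2137 and 4124 at 96 h. DHRS3, a retinal reductase, was 889 and 394 at 12 h, and 655 and 1105 at 96 h. No row was lower at 96 h and at least 1.5-fold higher at 12 h.

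Across all changed rows the 12 h treatment, which shares no column with the 96 h comparison, mostly went the same way. Of the 320 rows higher at 96 h, 214 (66.9%) were also at least 1.5-fold higher at 12 h, where 2.57% of the same 17146 rows were (2.69% of the rows above the limit at 12 h). Of the 206 lower rows, 115 (55.8%) were also at least 1.5-fold lower at 12 h, against 1.52% (and 1.59%). Any size of change in the same direction was seen for 303 and 204 of them, while 49.5% of the rows above the limit at 12 h were above 0. The log2 ratio was larger in size at 12 h than at 96 h for 167 of the 320 higher rows and for 62 of the 206 lower rows. At 12 h 35 higher and 19 lower rows had moved by less than 1.2-fold. Over the 15482 rows above the limit in both comparisons Pearson's r was 0.72 and Spearman's rho 0.63, which describes rows that share array design and cell line and are not independent.

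**Figure D3:**
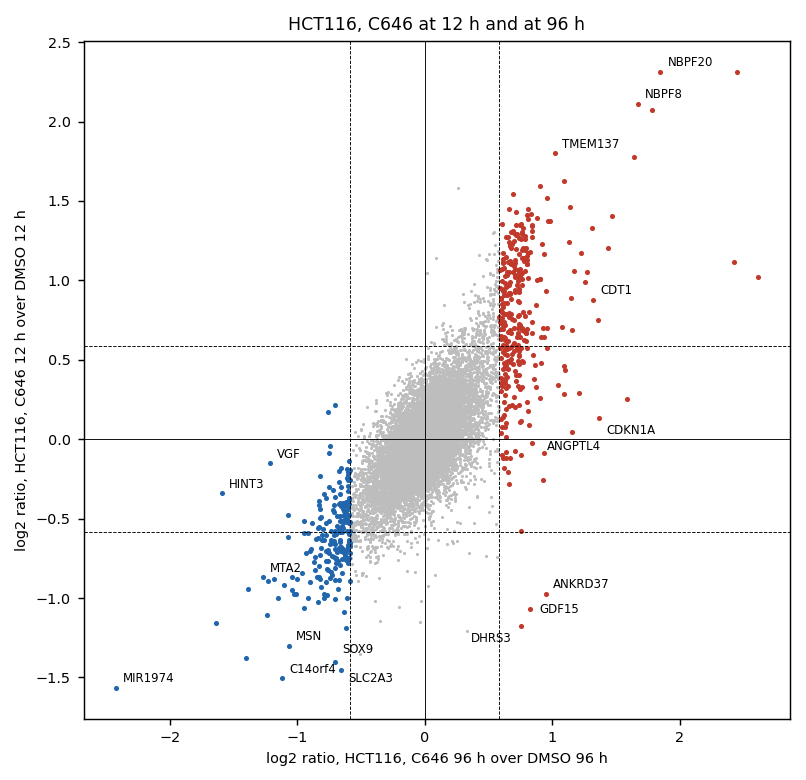
Log2 ratio of C646 over DMSO in HCT116 at 96 h (horizontal) and 12 h (vertical), 1 point a gene row, with dashed lines at 1.5-fold and rows changed at 96 h in red (higher) and blue (lower). CDKN1A and ANGPTL4 lie near 0 on the vertical axis, and GDF15, ANKRD37 and DHRS3 lie in the quadrant of higher at 96 h and lower at 12 h.

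The cell cycle counts at 1.5-fold stand beside 1.87% higher and 1.2% lower over all rows kept. Of 41 S phase rows, 33 were above 0, 2 were at least 1.5-fold higher and 0 lower, with a median log2 ratio of 0.21 against 0.00 for all rows. The 2 were RAD51AP1, a recombination factor, at 613 in DMSO and 973 in C646, and CDC45L, now CDC45, a part of the replicative helicase, at 565 and 876. In the DMSO columns the same list had a median log2 ratio of -0.80 between 96 h and 12 h, so its level in C646 at 96 h lay above DMSO at 96 h and below DMSO at 12 h for RAD51AP1 (1160) and CDC45L (1290). Of 53 G2/M rows, 2 were at least 1.5-fold higher, KIF2C, a microtubule-depolymerizing kinesin (595 and 899), and RANGAP1, which activates the GTPase of Ran (1569 and 2435). Repair genes picked after their values were seen went the same way, with FANCI of the Fanconi anemia pathway at 523 and 885 and BARD1, the partner of BRCA1, at 171 and 268. CDKN1A was the 1 of 7 CDK inhibitor rows that reached 1.5-fold, and CDKN1B stood at a log2 ratio of -0.37.

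Other genes of growth arrest and cell death moved less than CDKN1A. GADD45A, a stress gene that slows the cell cycle, was 1055 in DMSO and 1610 in C646. BAX, which opens the outer mitochondrial membrane, was 197 and 289, and PPM1D, a phosphatase of the DNA damage response, was 750 and 1038. Neither BAX nor PPM1D reached 1.5-fold.

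Of 14 rows of the WNT transcription complex 12 were below 0, with a median log2 ratio of -0.19. TCF7L2, the main TCF of colon cells, was 800 in DMSO and 410 in C646 at 96 h and 596 and 333 at 12 h. AES, now TLE5, a small member of the Groucho corepressor family, was 971 and 571, and CTNNB1, which encodes β-catenin, was 547 and 354. All 3 were at least 1.5-fold lower at both times. BCL9, a coactivator that binds β-catenin, was 560 and 432 and stayed under 1.5-fold. Among 31 WNT feedback and target rows, 3 were lower and 1 was higher, against 1.2% and 1.87% of all rows. The lower ones were SOX4 and SOX9, transcription factors of progenitor cells, at 4554 and 2635 and at 1523 and 932, and EPHB4, an ephrin receptor, at 687 and 423. The higher one was PLAUR, the urokinase receptor, at 388 and 650. AXIN2, the usual feedback reporter, was 643 and 514, MYC was 4308 and 3929, and DKK1, a secreted WNT inhibitor, was 5294 and 4981, none of them at 1.5-fold. CCND1, for cyclin D1, was 4574 and 5719 and BIRC5, for survivin, was 560 and 709. With ICG-001 at 96 h, which shares the DMSO column, DKK1 was 1095, MYC 2190 and CCND1 9808. The rows changed by C646 moved the same way with ICG-001, though SOX9 and EPHB4 moved little. TCF7L2 was 317, CTNNB1 354, AES 671, SOX4 1541, SOX9 1351, EPHB4 637 and PLAUR 918.

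Lineage and growth factor genes gave a few differences. EHF, an epithelial ETS factor, was 329 in DMSO and 212 in C646. EHF and SOX9 were the 2 of 14 intestinal transcription factor rows that reached 1.5-fold, both lower, against 1.2% of all rows. EREG, a ligand of the EGF receptor, was 727 and 436, and EPHA2, a receptor kinase induced by ERK signaling, was 624 and 409. PHLDA2 was the 1 of 19 ERK output rows that was at least 1.5-fold higher, at 327 and 506, against 1.87% of all rows. BMP7, a bone morphogenetic protein, was 201 and 391. PRSS8, a membrane serine protease of epithelia picked after its values were seen, was 657 and 1255. Of 30 interferon-stimulated rows 25 were above 0 and 2 were at least 1.5-fold higher, against 1.87% of all rows. The 2 were the ubiquitin-like ISG15 (2171 and 3476) and the transcription factor IRF1 (329 and 544). ACTB, the cytoplasmic actin often used as a loading control, was 14306 and 9473, whereas GAPDH was 14723 and 14633.

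Against 1.87% higher and 1.2% lower over all rows, 5 of 21 hypoxia targets other than glycolytic enzymes were at least 1.5-fold higher and 0 lower. They were ANGPTL4 and ANKRD37, given above, NDRG1, a differentiation gene (6621 and 11168), C7orf68, now HILPDA, a lipid droplet protein (960 and 1596), and ADM, the vasodilator adrenomedullin (6519 and 10288). The list median was 0.13, and CA9 and VEGFA, classical members, were 205 and 263 and 164 and 195. In the DMSO columns the list had a median log2 ratio of 0.64 between 96 h and 12 h, and the part of culture time in the C646 values was not tested. Among 23 glycolysis rows the glucose transporter SLC2A1 was higher (4031 and 6732), while the neuronal-type transporter SLC2A3 (1256 and 796) and the pyruvate kinase row PKM2 (2575 and 1379) were lower, and the median was -0.09.

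The promoters of ANKRD37, ANGPTL4 and ADM are shown because the hypoxia-inducible factors bind a short core, ACGTG or GCGTG. The core is set in capitals on either strand below. The promoters of NDRG1 and C7orf68, which were also higher, are not shown. The sequences run 5′ to 3′ on the gene's strand from 250 bases before the RefSeq start to the base before it, in GRCh38.p14, at chr4:185396591-185396840 for ANKRD37, chr19:8363905-8364154 for ANGPTL4 and chr11:10304823-10305072 for ADM, all on the plus strand.

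ANKRD37: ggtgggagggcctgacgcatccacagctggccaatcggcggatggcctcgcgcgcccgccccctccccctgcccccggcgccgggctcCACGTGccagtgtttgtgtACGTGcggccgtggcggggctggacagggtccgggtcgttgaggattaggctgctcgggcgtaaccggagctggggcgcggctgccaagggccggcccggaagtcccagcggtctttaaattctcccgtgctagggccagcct

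ANGPTL4: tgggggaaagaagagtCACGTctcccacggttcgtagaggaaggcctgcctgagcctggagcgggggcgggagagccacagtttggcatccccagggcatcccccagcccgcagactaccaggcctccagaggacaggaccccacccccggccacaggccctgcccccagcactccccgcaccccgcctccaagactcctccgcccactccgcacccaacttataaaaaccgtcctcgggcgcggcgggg

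ADM: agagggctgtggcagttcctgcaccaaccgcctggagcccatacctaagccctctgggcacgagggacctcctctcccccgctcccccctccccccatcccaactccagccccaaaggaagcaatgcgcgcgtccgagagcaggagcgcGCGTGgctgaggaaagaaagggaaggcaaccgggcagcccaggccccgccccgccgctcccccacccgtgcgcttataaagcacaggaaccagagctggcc

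ANKRD37 holds the core at 2 places, in the first of which it reads on both strands, and ANGPTL4 and ADM hold it once. Of the 21 hypoxia rows 17 had a promoter in the table, and 14 of these (82.4%) held at least 1 core, against 43.1% of all 27305 promoters. The list was written as hypoxia targets, so an excess of this core could be foreseen. The share covers the whole list, of which 5 of 21 rows were higher, and says nothing about the response to C646. The match is a description of letters, and binding was not measured here.

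Metallothioneins are small proteins that bind zinc. Of 11 rows of metallothioneins and zinc transport 9 were above 0, 2 were below 0 and 1 was at least 1.5-fold higher, with a median log2 ratio of 0.26, against -0.01 at 12 h. MT1X was 1723 in DMSO and 2808 in C646 at 96 h, and 1922 and 1822 at 12 h. MT1E was 3356 and 4973 and MT2A was 8021 and 10316, both under 1.5-fold. MT1X is shown with the metal response core, TGCACNC or TGCGCNC, in capitals on either strand, at chr16:56682220-56682469 on the plus strand of GRCh38.p14.

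MT1X: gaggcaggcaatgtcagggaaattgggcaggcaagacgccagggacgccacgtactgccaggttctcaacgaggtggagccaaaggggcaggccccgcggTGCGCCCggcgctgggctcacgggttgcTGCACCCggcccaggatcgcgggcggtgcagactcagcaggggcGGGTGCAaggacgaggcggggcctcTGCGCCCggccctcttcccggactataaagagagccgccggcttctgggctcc

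MT1X held 4 cores in the 250 bases. Of the 6 rows of the list with a promoter in the table, 4 held at least 1 core and 3 held at least 2, against 24.7% and 6.51% of all promoters. These counts describe the whole list, of which 1 row reached 1.5-fold, and not the response to C646. Metallothionein genes are near-identical in sequence, so signal may be shared between their rows.

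Stress genes gave a few higher rows. Over all rows 1.87% were at least 1.5-fold higher and 1.2% lower. Of 27 ATF4 program rows, which answer amino acid shortage and ER stress, 4 were at least 1.5-fold higher and 0 lower. They were TRIB3, a pseudokinase (749 and 1354), SLC7A5, an amino acid transporter (2330 and 4070), DDIT3, the factor CHOP (405 and 644), and GDF15. ATF4 itself was 3789 and 4206. For TRIB3 and SLC7A5 the DMSO signal at 12 h was 1381 and 4137, above both their 96 h values. With ICG-001 at 96 h the same 27 rows had a median log2 ratio of 1.21, against 0.17 with C646, and the 2 share their DMSO column. Of 19 ER chaperone rows, DNAJB9 was higher (364 and 565) and HYOU1 lower.

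Cholesterol synthesis had 16 of 22 rows below 0 and a median of -0.21. LSS, lanosterol synthase, was 330 and 212 and DHCR7, of the last step, was 1027 and 677, while HSD17B7, which works between them, was 2749 and 4291. SQLE, squalene epoxidase, was 1497 and 1032, under 1.5-fold. Against 1.87% higher and 1.2% lower over all rows, lysosome and autophagy had 3 of 26 rows higher and 1 lower. They were CTSZ, the proton pump subunit ATP6AP1 (1884 and 3086) and the autophagy receptor SQSTM1 (3972 and 6238), with CTSD, another cathepsin, lower at 459 and 280.

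Large constitutive complexes stayed near 0. Of the rows of respiratory complex I (36), complexes II to IV (25), ATP synthase (16), mitochondrial ribosomal proteins (76) and the proteasome (32), none reached 1.5-fold, and their medians ran from -0.16 to -0.05. Of 77 cytosolic ribosomal protein rows 1 did, RPS26, at 4749 and 2769. Among 28 splicing factors HNRNPL was lower (2519 and 1575) and HNRNPU higher (664 and 1003). Against 1.87% of all rows, 2 of 19 rows of replication-dependent histones were higher. The 2 were HIST1H2BD (556 and 938) and HIST1H2AC (291 and 448), which were 372 and 249 and 211 and 185 at 12 h.

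**Figure D4:**
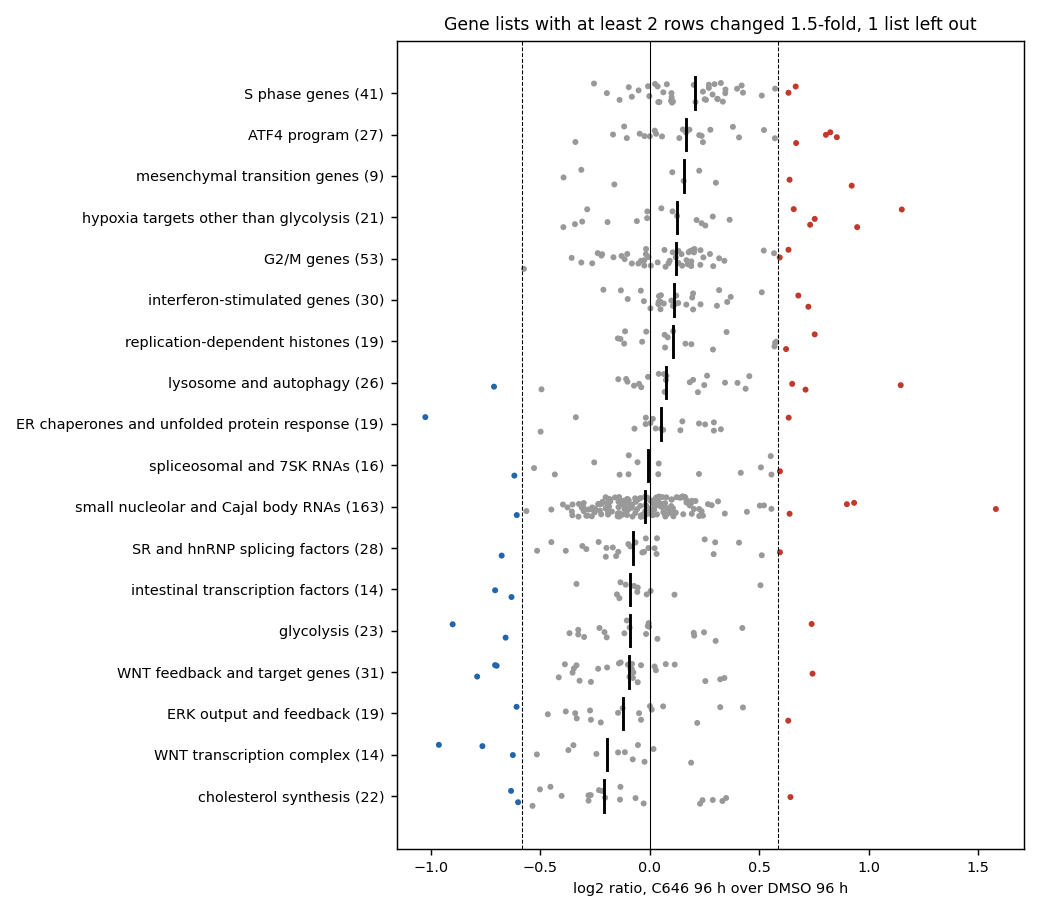
Log2 ratios of C646 over DMSO at 96 h in HCT116 for the gene lists with at least 2 rows changed 1.5-fold, 1 list left out, 1 point a row, with dashed lines at 1.5-fold, the number of rows above the limit in brackets and the list median as a black bar. Red and blue points are at least 1.5-fold higher and lower. The medians run from -0.21 to 0.21, and the hypoxia list holds 5 red points.

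In PANC1, whose columns are separate from those of HCT116, many of the changes were seen again. Of the 320 rows higher in HCT116 at 96 h, 178 (55.6%) were at least 1.5-fold higher in PANC1 at 96 h, against 2.72% of the same 17146 rows (2.90% of the rows above the limit in PANC1). Of the 206 lower rows 76 (36.9%) were at least 1.5-fold lower in PANC1, against 1.14% (and 1.23%). Rows higher at least 1.5-fold at both times in both lines numbered 157, and rows lower in all 4 comparisons 45. At 12 h in PANC1 4.09% of rows above the limit were higher and 2.76% lower. The 157 higher rows had a median log2 ratio of 0.73 in HCT116 at 96 h, with quartiles of 0.66 and 0.80. Their median was 1.11 at 12 h and 1.30 in PANC1 at 96 h. Because they were chosen at 1.5-fold or more in these same comparisons, the cutoff bounds the values from below. The 157 rows included 11 ZNF genes, which encode zinc finger proteins, and 43 rows with no RefSeq match. Some encode proteins of other tissues, such as AIRE of thymus (1731 and 2976), LEP, leptin (360 and 624), IL10 (1752 and 2860) and DMC1 of meiosis (2417 and 4324), all 4 picked after their values were seen. In each of these 4 the DMSO signal was above the limit, and the C646 signals at 12 h and 96 h were similar, as in DMC1 with 4214 and 4324. In PANC1 the DMSO signals at 96 h were 1714 for AIRE, 362.5 for LEP, 1797 for IL10 and 2873 for DMC1. With ICG-001 in HCT116 at 96 h, which shares the DMSO column, the 157 rows had a median log2 ratio of 0.61. PLIN5, NBPF20, NBPF8, USP49, CCBE1, HSD17B7 and HNRNPU, given above, are also among the 157 rows. Whether the signals of the 157 rows come from the named genes was not tested. Lower in all 4 comparisons were PPP1R10, PTMS, MSN, HYOU1, NFIX and SOX9, among others.

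Other genes reached 1.5-fold in HCT116 and stayed under 1.2-fold in PANC1. At both times in HCT116 18 rows were at least 1.5-fold higher and 18 lower while the PANC1 ratios were under 1.2-fold at both times. In PANC1 14 of the 18 higher and 12 of the 18 lower rows were above the limit, and for the rest PANC1 gives no level to compare. With signal in PANC1 were CPA4 (173 in DMSO and 176 in C646 at 96 h), MAPK13 (197 and 233), ATF5, a stress transcription factor (2025 and 1832), SOX4 (1010 and 962), CTNNB1 (224 and 213) and FAT1, a giant cadherin (3248 and 3615). CPA4, MAPK13 and CTNNB1 were dim in PANC1, where the limits at 96 h were 138.5 in DMSO and 137.9 in C646. Ratios of such dim rows are compressed, so their small PANC1 ratios do not show that they did not move. The difference between the lines was not tested.

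**Figure D5:**
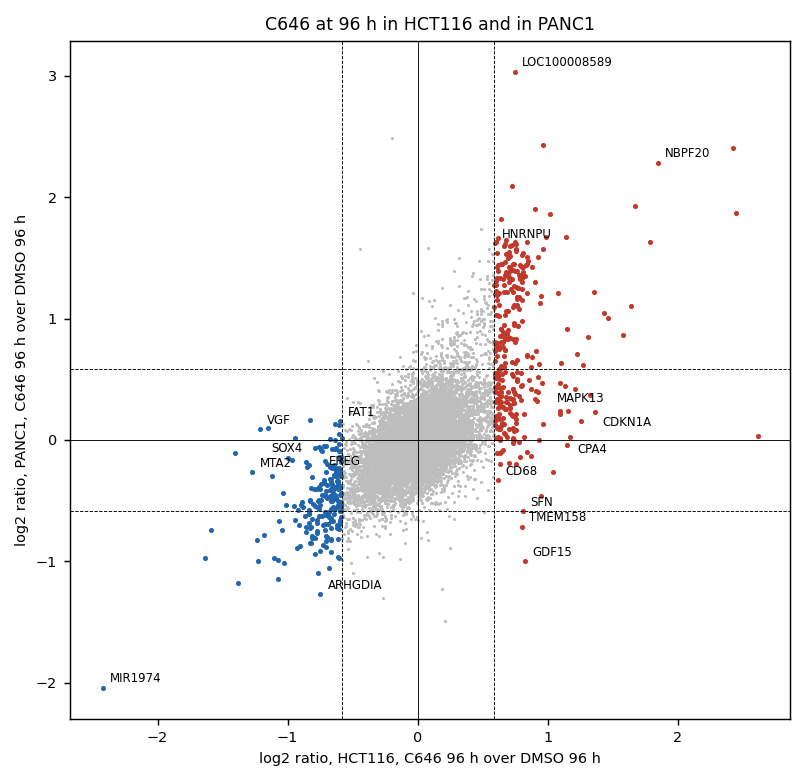
Log2 ratio of C646 over DMSO at 96 h in HCT116 (horizontal) and PANC1 (vertical), 1 point a gene row, with dashed lines at 1.5-fold and rows changed in HCT116 in red and blue. CPA4 and CDKN1A lie at the right near 0 on the vertical axis, and GDF15 lies in the quadrant of higher in HCT116 and lower in PANC1.

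By type of gene, 1.91% of 12006 protein-coding rows were higher and 1.07% lower, while 0.87% of 802 pseudogene rows were higher and 5.24% lower. Of 297 rows of ribosomal protein pseudogenes 25 were lower and 2 higher, against 1.2% and 1.87% of all rows. RPS26 and its pseudogenes gave 15 rows, of which 14 were below 0 and 5 at least 1.5-fold lower, and PPIA, for cyclophilin A, gave 12 rows, of which 11 were below 0 and 5 at least 1.5-fold lower. The RPL7 parent row was 7831 in DMSO and 6041 in C646, while the row of its pseudogene RPL7P59, LOC643308, was 2188 and 705. Parent and pseudogene transcripts are near-identical, so the rows cannot be told apart by hybridization alone. ZNF genes made up 14 of the 229 higher protein-coding rows (6.11%), 3 of the 129 lower ones and 316 of the other 11648 (2.71%). Lower protein-coding genes had a median length of 19.5 kb, higher ones 23.6 kb and the rest 29.3 kb. Median promoter GC was 66.4%, 64.4% and 64.8%, with quartiles of 60.6% and 73.4%, 57.2% and 72.8%, and 57.6% and 71.6%. The called rows were also brighter, with median signals of 700 for lower, 900 for higher and 305 for the rest.

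Noncoding rows and rows with no RefSeq match gave some of the largest sizes. MIR1974, a row named for a withdrawn microRNA entry, was 3241 in DMSO and 604 in C646 at 96 h, or 18.6% of DMSO, and 3247 and 1097 at 12 h. It was the 1 of 77 microRNA rows that reached 1.5-fold. Of 163 small nucleolar and Cajal body RNA rows 4 were higher and 1 lower, against 1.87% and 1.2% of all rows. SNORD3D, a U3 RNA that guides ribosomal RNA cleavage, was at 406 and 1215 and its copy SNORD3A at 366 and 699. The row LOC100132761 was 134 in DMSO, under the limit, and 731 in C646, which is at least 5.11-fold higher. LOC100132564 was 172 and 923, and LOC100130123 was 150 and 468. None of these LOC rows matched a RefSeq gene, so whether they are noncoding is not known. Rows for the ribosomal RNAs, LOC100008588 for 18S and LOC100008589 for 28S, picked after their values were seen, were 500 and 1280 and 496 and 831. In the DMSO column of 12 h they were 583 and 399. Whether RNA quality or amplification had a part in these rows was not tested.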

How the data were processed

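The authors extracted total RNA, hybridized it to Illumina HumanHT-12 BeadChips and exported gene-level values from GenomeStudio (version not given in the sources used here). The deposited values are gene-level intensities on a linear scale, quantile normalized without background subtraction and averaged by the authors over 2 arrays per group (3 for PANC1 with ICG-001 at 12 h). The averages were used as deposited, so replicate error and p-values cannot be given, and the number of arrays limits the precision. The table has 12 columns and 34687 rows. Row names were matched to RefSeq symbols (GRCh38.p14): 17755 matched a current symbol, 3305 an older one, 144 an older one of several genes, 2669 a gene identifier and 10814 none.

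For each column the background limit was set at the peak of the log2 signal distribution plus 2.33 SD of the values below the peak. Ratios are log2 of C646 over DMSO with no pseudocount, and a row at least 1.5-fold apart was counted as higher or lower. The 59 gene lists, the genes of interest and the comparison were chosen with earlier results of these data known. Named genes were the 12 largest rises and falls also changed at 12 h, the 8 largest changed by less than 1.2-fold at 12 h, up to 4 per list, 14 genes of the study's subject, the largest noncoding and unmatched rows, and the 5 largest each way at a mean signal over 1000. Genes outside this rule were picked after their values were seen, either as the text says or, for KRT19, EPCAM, CDX2, DHRS3, CDKN1B, PPM1D, BCL9, GAPDH, ADM, CA9, VEGFA, MT1E, MT2A, ATF4, SQLE, ATF5, FAT1, PPIA and RPL7, as examples of a list, a group or a family. Results on some genes, and the lists that rest on them, are not reported here. Promoters are the 250 bases before the RefSeq start. The calculation was tested on simulated data with 200 changed genes. Python 3.11.15, pandas 2.3.3, R 4.3.3 and limma 3.58.1 (normexp) were used. Alternatives were 2 other fold thresholds, 3 row filters, 3 scalings and the 12 h DMSO control.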

Additional observations from a re-analysis of the deposited data

Results flagged for a closer look

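CD68 was set apart by its opposite directions in the cell lines, since both C646 time points were higher in HCT116 (log2 ratios 0.62 at 96 h and 0.64 at 12 h) and both were lower in PANC1 (-0.33 and -0.59). The mean of HCT116 minus that of PANC1 was 1.10 on the log2 scale, and the difference was not tested.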

How the results depend on the processing

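No paired analysis was possible because each column is an average of its replicates, and leaving out 1 replicate was not possible for the same reason. The count of 526 changed rows (320 higher, 206 lower) was 3325 (1658 and 1667) at a threshold of 1.2-fold and 51 (31 and 20) at 2-fold. It was 1529 (840 and 689) after normexp with an offset of 16 and quantile normalization, and 1299 (804 and 495) with the 12 h DMSO column as the control. The share of higher rows was 60.8% as reported, 49.9% at 1.2-fold, 54.9% after normexp and 61.9% with the 12 h control. Rows changed the same way at 12 h were 1945, 24 and 754 at 1.2-fold, at 2-fold and after normexp, and in PANC1 at 96 h 1596 and 17 at 1.2-fold and 2-fold. With the 12 h DMSO control 8 named genes past 1.5-fold changed sign: ATF5 (-0.15), CDC45L (-0.56), E2F2 (-0.63), RAD51AP1 (-0.25), SLC7A5 (-0.023) and TRIB3 (-0.029) were lower, and LEMD1 (0.81) and SLC2A3 (0.31) were higher. Named genes under 1.5-fold changed sign as well, among them MYC (0.27), DKK1 (0.43) and BIRC5 (-0.19). Of the 169 named genes, none past 1.5-fold changed sign after normexp, quantile normalization over all 12 columns or centring. Of 59 list medians, 9 crossed 0 under an alternative other than the 12 h control. The endothelial list has no median under the 2 stricter row filters, which leave none of its rows. Dim rows limit what can be seen, because their ratios are compressed.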
